A study of Mus musculus with 3 samples.

Results

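The nuclear genes of the mitochondrial respiratory chain were examined, complex by complex, for HIF1α binding in the embryonic mouse heart. Members were all nuclear protein-coding genes of the RefSeq annotation whose symbol begins with Nduf (complex I), Sdh (complex II), Uqcr (complex III), Cox and a digit (complex IV) or Atp5 (complex V, the ATP synthase). Ndufa4, Ndufa4l2, Cox4i1 and Cox4i2 were left out. The rule gave 105 of 21779 protein-coding genes, of which 47 belong to complex I, 8 to complex II, 8 to complex III, 25 to complex IV and 17 to complex V. It takes assembly factors with the subunits: 78 members encode structural subunits including 3 muscle-type isoforms, 22 encode assembly factors, 3 are testis-type isoforms and 2 are further copies of Ndufb4.

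Binding was measured by chromatin immunoprecipitation and sequencing with a HIF1α antibody in wild-type hearts of Black-Swiss embryos at E12.5, in 2 pulldown libraries and 1 input library without antibody. The labels do not say whether the pulldowns came from separate pools of hearts. The measurement is the authors' single merged list of 17289 peaks on mm10, with a score for each peak that has no stated scale and only ranks peaks here. Of these peaks, 1989 (11.5%) were made from 2 merged calls and 15300 from 1 call, and the list does not name the pulldown that gave a call, so values here carry no replicate error. The median score in the list was 2, and 7.48% of peaks scored 5 or more. The read depth behind these peaks is unknown. A list of binding sites does not measure RNA, so heart markers could not be checked in it.

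The chain passes electrons from NADH at complex I, and from succinate at complex II, through ubiquinone and complex III to complex IV, where oxygen is reduced. Complexes I, III and IV pump protons, and complex V uses the gradient to make ATP. HIF1α, a transcription factor subunit destroyed when oxygen is ample, pairs with ARNT to bind a short core, ACGTG or GCGTG. In hypoxia it is known to lower the use of oxygen by mitochondria and to raise glycolysis.

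The promoters that carried the best-scoring peaks on a gene start were all from complex I. They are shown because the peak centre lay on the promoter itself and scored 5, the highest score of any member peak inside the RefSeq promoter window, which runs from 250 bases before to 50 bases after the gene start. In all, 17 members had a peak centre in that window, and these are the 5 that rank first by score, then calls, then distance to the start. Each sequence runs 5′ to 3′ on the strand of the gene, from 150 bases before the start to 30 bases after it (RefSeq, GRCm38.p6), and capitals mark ACGTG or GCGTG on either strand.
Ndufv3: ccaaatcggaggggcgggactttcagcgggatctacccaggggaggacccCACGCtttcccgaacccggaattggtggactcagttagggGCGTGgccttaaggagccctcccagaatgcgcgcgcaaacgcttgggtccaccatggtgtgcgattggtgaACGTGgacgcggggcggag
Ndufaf1: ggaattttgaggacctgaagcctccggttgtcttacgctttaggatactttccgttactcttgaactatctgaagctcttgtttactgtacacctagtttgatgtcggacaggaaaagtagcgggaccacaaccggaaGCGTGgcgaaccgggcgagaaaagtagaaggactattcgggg
Ndufs7: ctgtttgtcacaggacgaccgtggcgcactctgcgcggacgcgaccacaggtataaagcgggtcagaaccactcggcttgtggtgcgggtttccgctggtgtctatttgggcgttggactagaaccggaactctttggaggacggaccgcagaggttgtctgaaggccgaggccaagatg
Ndufs3: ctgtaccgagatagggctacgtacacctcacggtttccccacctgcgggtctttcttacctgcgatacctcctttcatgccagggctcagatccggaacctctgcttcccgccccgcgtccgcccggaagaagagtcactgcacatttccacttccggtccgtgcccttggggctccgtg
Ndufb5: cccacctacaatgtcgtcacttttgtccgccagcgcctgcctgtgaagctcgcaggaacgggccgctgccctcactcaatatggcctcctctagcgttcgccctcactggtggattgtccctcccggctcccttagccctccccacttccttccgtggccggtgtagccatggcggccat

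Ndufv3 (chr17:31519965-31520144, plus strand) held 4 such cores in its promoter window, 2 of them within the part covered by its peak. The one nearest the start was an ACGTG whose first base lay at position 12, counted from 1 at the gene start, and 1 more lay beyond the bases shown. Ndufaf1 (chr2:119662805-119662984, minus strand) held 1 core, a GCGTG at position -12 and under the peak. Ndufs3 (chr2:90904692-90904871, minus strand) held 1 core, a GCGTG at position 35, which is under the peak but beyond the bases shown. Ndufs7 (chr10:80249299-80249478, plus strand) and Ndufb5 (chr3:32736913-32737092, plus strand) held 0 cores in the 300 bases searched. A match of letters is a description and not a site.

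Respiratory chain genes lay near HIF1α peaks somewhat more often than protein-coding genes as a whole. At 36 of 105 members a peak centre was found no more than 5 kb from either gene end (34.3%, exact Clopper-Pearson 95% interval 25.3 to 44.2%), against 24.0% of all protein-coding genes. Within 1 kb the count was 27 of 105 (25.7%, interval 17.7 to 35.2%), against 16.2% of all genes, and within 50 kb it was 78 (74.3%), against 63.6%. The intervals cover counting error over genes, which are not replicates, and no test was made of the difference. The median distance from a gene end to the nearest peak was 13.0 kb for members and 28.3 kb for all protein-coding genes.

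Peaks of 2 calls were found near members about as often as near protein-coding genes in general. Of 105 members, 9 (8.57%, interval 3.99 to 15.6%) had such a peak within 5 kb, against 7.72% of all protein-coding genes, a share near the background. That was 25.0% of the members near any peak, against 32.2% of all genes near one. Within 1 kb the count was 8 (7.62%), against 5.54% of all genes, and within 50 kb it was 27 (25.7%), against 21.0%. Leaving out peaks with the lowest score, 34 members (32.4%) had a peak of score 3 or more within 5 kb, against 19.3% of all genes. Members with a peak of 2 calls included Ndufs1, Ndufs7, Ndufv3, Ndufaf1, Sdhaf3, Uqcrh, Cox20 and Atp5g2.

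**Figure D1:**
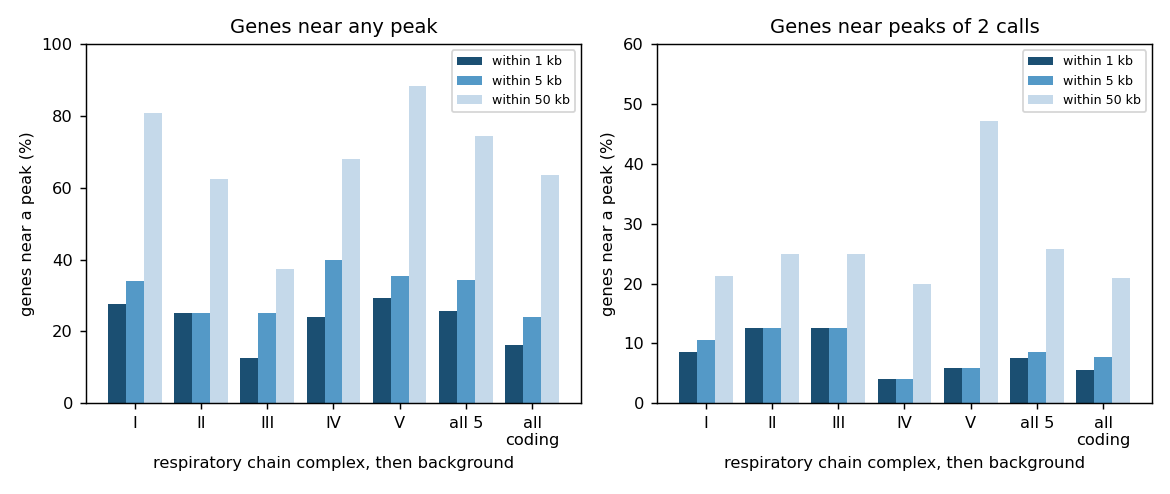
Share of genes (%) with a peak centre within 1, 5 and 50 kb of either gene end, for each respiratory chain complex, all 105 members and all protein-coding genes, for any peak (left) and for peaks of 2 calls (right). Within 5 kb the members reach 34.3% against 24.0% of all protein-coding genes for any peak, and 8.57% against 7.72% for peaks of 2 calls.

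The best scores near members were mostly 3 to 5, where the median of the whole list was 2 and 44.0% of its peaks scored 3 or more. The number of members near a peak is too small to set the lack of high scores apart from the background. Of the 36 members near a peak within 5 kb, 0 had a score of 10 or more there, which allows a share of up to 8.33%, against 3.47% of the 5222 protein-coding genes near a peak. The highest score within 5 kb was 8, at Cox20, followed by 7 at Uqcrh. The lowest score of 2 was the best score of 5.56% of members near a peak and of 19.5% of all genes near a peak. A best score of 3 was held by 47.2% of these members, against 36.4% of all genes near a peak, and a best score of 4 or 5 by 38.9%, against 32.2%. The median score of the nearest peak within 5 kb was 3 in both.

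**Figure D2:**
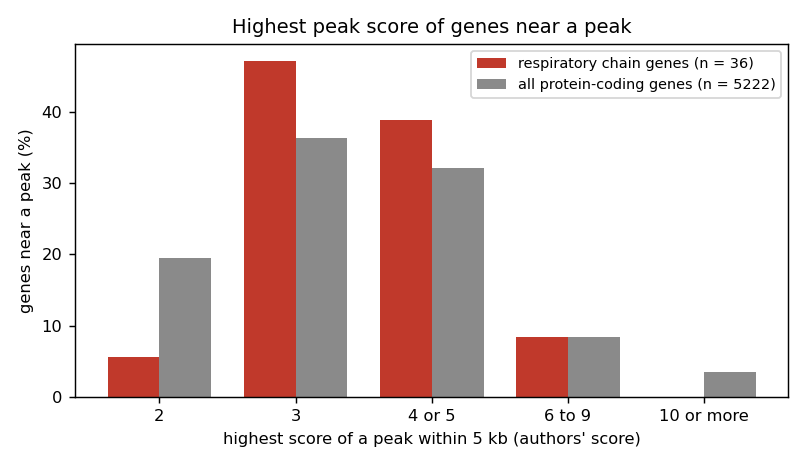
Highest score of a peak within 5 kb of a gene end, as a share (%) of the genes near a peak, for 36 respiratory chain genes and 5222 protein-coding genes. Members are mostly at scores of 3 to 5, and 0 of them reach 10.

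Complex I, which oxidises NADH, had peaks within 5 kb at 16 of 47 genes (34.0%) and within 1 kb at 13 (27.7%), against 24.0% and 16.2% of all protein-coding genes. Its core subunits carry the flavin, the iron-sulfur clusters and the ubiquinone site, and 5 of their 7 genes had a peak; 3 of these had a peak of 2 calls. Of the 30 accessory subunit genes 9 had a peak, 1 of them of 2 calls. Of its 8 assembly factor genes, 1 had a peak in that window. With so few core genes the exact interval of their share runs from 29.0 to 96.3% for any peak. For peaks of 2 calls it runs from 9.9 to 81.6%. In complex I as a whole, 5 of 47 genes (10.6%) had a peak of 2 calls within 5 kb, against 7.72% of all protein-coding genes.

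Among the core genes, Ndufs3, a subunit of the ubiquinone module, had a peak of 1 call and score 5 centred 27 bp inside its start, and Kbtbd4 has an end 46 bp from that centre. Ndufs7, whose protein holds the iron-sulfur cluster next to ubiquinone, had a peak of 2 calls and score 5 (chromosome 10, 80249305 to 80249446). That peak was centred inside the annotated gene, 270 bp from its outer end and 74 bp upstream of the RefSeq start used for its promoter. At Ndufs1, the largest core subunit, a peak of 2 calls and score 4 (chromosome 1, 63176927 to 63177061) lay 172 bp outside the gene, and it was closer to the end of Eef1b2, at 163 bp. The peak counted for Ndufs8 scored 3, lay 1656 bp from that gene and 74 bp from an end of Tcirg1. The 2 core genes without a peak within 5 kb were Ndufv2 at 10.1 kb and Ndufv1, which encodes the NADH-binding subunit, at 25.0 kb.

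Accessory subunits surround the core and stabilise it. Ndufv3 had a peak of 2 calls and score 5 (chromosome 17, 31520080 to 31520216) centred 33 bp inside the gene and 163 bp from an end of Wdr4. It was the only accessory gene of complex I with 2 calls within 5 kb. The remaining 8 accessory genes near a peak had peaks of 1 call within 1 kb. Scores of 3 were found at Ndufa10 (8 bp from the gene end), Ndufa9 (22 bp), Ndufa12 (38 bp), Ndufb2 (78 bp) and Ndufa5 (99 bp). Ndufb5, a subunit of the membrane arm, had 2 peaks of score 5, the nearer at 67 bp, and the mitochondrial ribosomal protein gene Mrpl47 has an end 235 bp from that nearer centre. At Ndufab1, the mitochondrial acyl carrier protein, the peak scored 4 and lay 279 bp from the gene end. Ndufa13 had 2 peaks of score 4, and the nearer, at 705 bp, was closer to Tssk6 (255 bp).

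The assembly factor gene with a peak was Ndufaf1, which acts in building the membrane arm. Its peak of 2 calls and score 5 (chromosome 2, 119662829 to 119662937) was centred 44 bp outside the gene. Ndufb4b, a further copy of Ndufb4, had a peak of 1 call and score 2 at 1802 bp. The other 31 complex I genes had no peak within 5 kb. Of these, 22 had one between 7.16 and 49.8 kb. The 9 without a peak within 50 kb were Ndufb1, Ndufc2, Ndufa7, Ndufaf6, Ndufa11, Ndufb4, Ndufb11, Ndufaf4 and Ndufa1, and Ndufa1 on chromosome X was farthest, at 370 kb. The highest score within 50 kb of a complex I gene was 15, in a peak of 2 calls 8.71 kb from Ndufc1. That peak lay 226 bp from an end of Mgarp, which encodes another mitochondrial protein.

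Complex II, succinate dehydrogenase, had peaks at assembly factor genes and at none of its own subunit genes. Its 4 subunit genes were 0 of 4 within 5 kb, with an exact interval that reaches 60.2% in so small a set. The nearest peaks were 13.4 kb from Sdhd, 31.4 kb from Sdhb, 40.9 kb from Sdha and 64.5 kb from Sdhc. Of the 4 assembly factor genes, 2 had a peak within 1 kb (50.0%, interval 6.76 to 93.2%), against 16.2% of all protein-coding genes. Sdhaf3, which helps mature the iron-sulfur subunit, had a peak of 2 calls and score 3 (chromosome 6, 6955806 to 6955914) at 111 bp. Sdhaf2, needed to attach flavin to SDHA, had a peak of 1 call and score 5 at 557 bp, which lay 543 bp from an end of Cpsf7. Sdhaf1 (51.3 kb) and Sdhaf4 (73.5 kb) had none within 50 kb. For the whole complex the share within 5 kb was 25.0%, against 24.0% of all protein-coding genes.

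Complex III, the cytochrome bc1 complex, had 2 of 8 genes within 5 kb of a peak (25.0%) and 1 within 1 kb (12.5%), against 24.0% and 16.2% of all protein-coding genes. Uqcrh, the hinge subunit, had a peak of 2 calls and score 7 (chromosome 4, 116075320 to 116075445), 312 bp upstream of its start and 113 bp from an end of Lrrc41. Uqcr11, a small subunit, had 2 peaks of 1 call and score 5, the nearer 4020 bp from its 3′ side and 554 bp from an end of Mbd3. All peaks counted for this complex were thus closer to another coding gene. The Rieske iron-sulfur gene Uqcrfs1 had its nearest peak at 38.4 kb. The remaining 5, namely Uqcrq, Uqcrb, Uqcrc2, Uqcr10 and Uqcrc1, had none within 50 kb, with distances of 50.5 to 148 kb. Within 50 kb the share of the complex was 37.5%, against 63.6% of all protein-coding genes, from 3 genes.

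Complex IV, cytochrome c oxidase, had the highest share of the 5 complexes within 5 kb, at 10 of 25 genes (40.0%, interval 21.1 to 61.3%), against 24.0% of all protein-coding genes. Within 1 kb it had 6 of 25 (24.0%), below complexes I, II and V, against 16.2% of all genes. A single gene had a peak of 2 calls (4.0%, against 7.72% of all protein-coding genes). That gene was Cox20, which encodes a chaperone for the mitochondrially encoded subunit 2. Its peak scored 8 (chromosome 1, 178318493 to 178318650) and was centred inside the annotated gene, 476 bp from its outer end and 582 bp upstream of the RefSeq start used for its promoter. The 9 other genes had peaks of 1 call with scores of 2 or 3.

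Of 12 structural subunit genes of complex IV, 6 had a peak within 5 kb (50.0%), against 24.0% of all protein-coding genes. In the same window 0 had a peak of 2 calls, with an exact interval that reaches 26.5%, against 7.72% of all genes. Cox6b1, on the intermembrane space side of the enzyme, had a peak of score 3 centred 2 bp from its start, the smallest distance of any member. The peak of Cox7a1, the heart and muscle isoform of subunit 7a, scored 3 at 58 bp, and that of Cox8a scored 3 at 184 bp. For Cox6a2, another muscle isoform, the peak scored 2 at 1884 bp, whereas Cox8b, the muscle isoform of subunit 8, had none within 50 kb. At Cox5a a peak of score 3 lay 3842 bp inside the gene span but 62 bp upstream of the RefSeq promoter start. Cox7b, on chromosome X, was counted for a peak of score 3 at 4611 bp that was 163 bp from an end of Atp7a.

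Among assembly genes of complex IV, the peak of Cox19 scored 3 at 14 bp, and Cox10, the farnesyltransferase of heme A synthesis, had one of score 3 at 31 bp. Cox14 had a peak of score 3 at 1092 bp, closer to the glycerol phosphate dehydrogenase gene Gpd1 (488 bp). The 3 testis-type genes Cox6b2, Cox7b2 and Cox8c had no peak within 5 kb, at 11.6, 76.1 and 176 kb. In all, 7 genes had their nearest peak between 11.6 and 44.0 kb. The 8 without one within 50 kb were Cox8b, Cox7b2, Cox5b, Cox11, Cox7a2, Cox17, Cox6c and Cox8c.

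Complex V, the ATP synthase, had peaks within 5 kb at 6 of 17 genes (35.3%, interval 14.2 to 61.7%) and within 1 kb at 5 (29.4%), against 24.0% and 16.2% of all protein-coding genes. A peak of 2 calls lay within 5 kb of 1 gene (5.88%), against 7.72% of all genes. Atp5o, which joins the catalytic head to the stator, had a peak of 1 call and score 3 at 14 bp. Atp5j2, the membrane subunit f, had one of score 4 at 43 bp, and Atp5e, subunit epsilon of the central stalk, one of score 3 at 122 bp. Atp5a1, the alpha subunit of the catalytic head, had a peak of 1 call and score 4 at 187 bp, which was 70 bp from an end of Haus1. Atp5g2, a gene for the c ring, had the complex's peak of 2 calls, with a score of 4 (chromosome 15, 102671890 to 102672009), 902 bp upstream of the start. Atp5d, subunit delta, had 3 peaks of 1 call and scores of 3 or 4 in its window, the nearest at 2695 bp. That nearest peak lay inside the gene span, 882 bp upstream of the RefSeq promoter start and 1038 bp from an end of Cbarp. Measured to annotated gene ends, each of the 3 was closer to another coding gene, Cbarp or Midn. The nearest peak was, however, closer to the promoter start of Atp5d than to that end of Cbarp.

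The catalytic beta subunit gene Atp5b lay 6.42 kb from a peak of 1 call and score 7. With Atp5j at 6.16 kb it was just outside the 5 kb window, whereas Cox7b was just inside it. Within 50 kb complex V reached 15 of 17 genes (88.2%), and 8 of 17 (47.1%) for peaks of 2 calls, against 63.6% and 21.0% of all protein-coding genes. The exceptions were Atp5g3 (63.8 kb) and Atp5pb (84.6 kb). The highest score within 50 kb of any member, 41, was in a peak of 2 calls 31.8 kb from Atp5l (chromosome 9, 44881385 to 44881515). That peak lay 98 bp from an end of Kmt2a, a histone methyltransferase gene. In this window 2 of 105 members, Atp5l and Ndufc1, had a score of 10 or more, against 2.59% of all protein-coding genes, and both peaks were nearer to another gene.

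**Figure D3:**
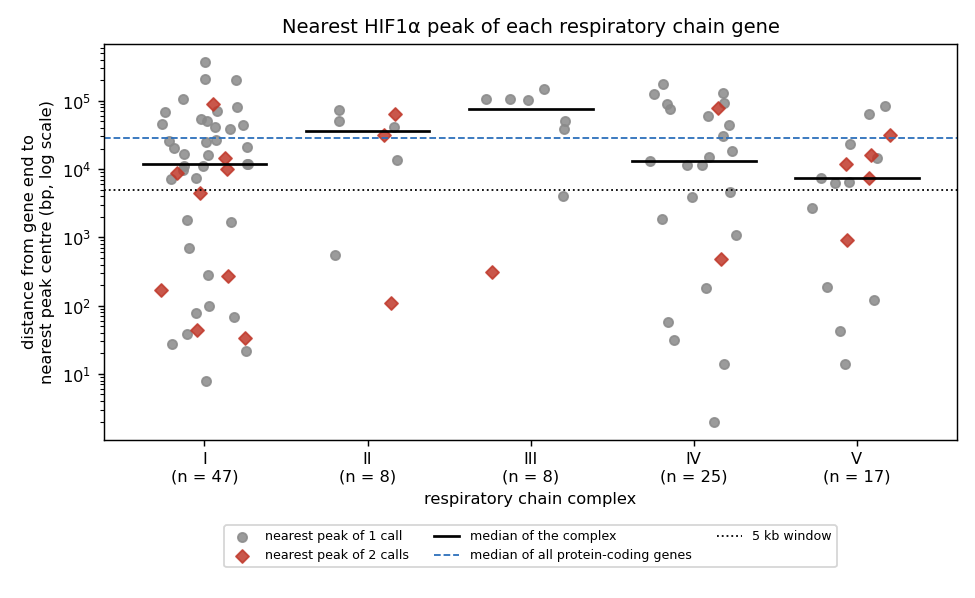
Distance (bp, log scale) from the nearer gene end to the nearest peak centre for each of 105 members, by complex, with peaks of 1 call as grey circles and of 2 calls as red diamonds. Black bars are complex medians, from 7.38 kb in complex V to 76.6 kb in complex III. The dashed line is the median of all protein-coding genes (28.3 kb), and the dotted line the 5 kb window.

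Peaks within 1 kb of members lay on the start side of the gene wherever its strand was listed. Of the 27 members within 1 kb of a peak, 25 have a strand and start in the RefSeq promoter table, and for 25 of 25 the peak was nearer the start than the 3′ end. Among all protein-coding genes within 1 kb of a peak the share was 90.6% of 2876. A peak centre lay within 100 bp of a gene end at 15 members (14.3%), against 6.35% of all protein-coding genes. The nearest peak within 1 kb was of 1 call for 19 members and of 2 calls for 8.

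**Figure D4:**
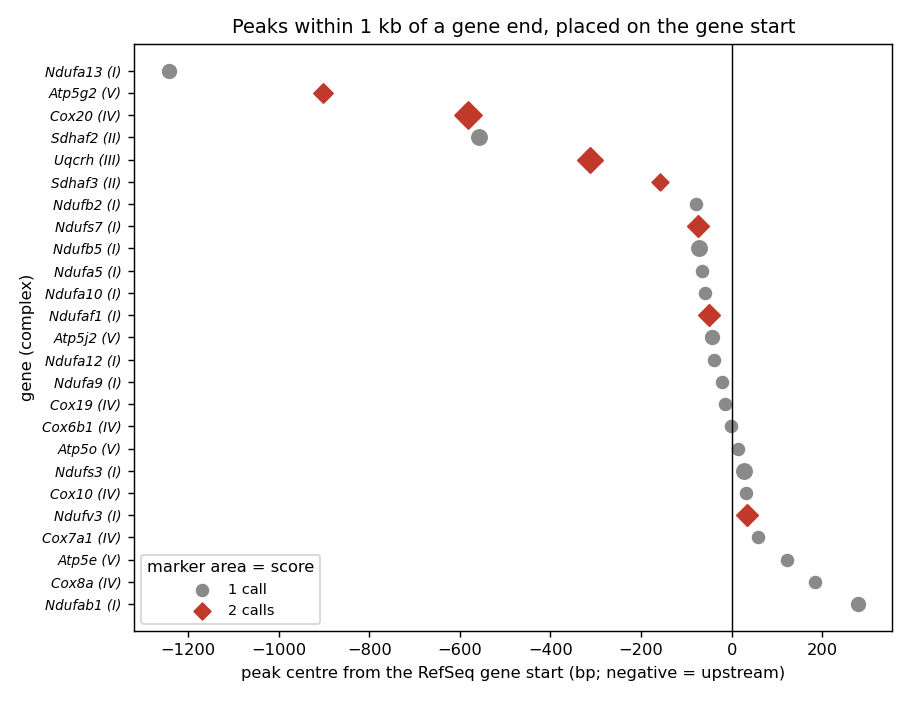
Position of the nearest peak centre relative to the RefSeq gene start (bp, negative is upstream) for the 25 members with a peak within 1 kb of a gene end and a listed start, with marker area as the score. Most centres lie within 100 bp of the start, and the higher scores at Cox20 (8) and Uqcrh (7) lie 582 and 312 bp upstream.

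Members are short genes with close neighbours. Their median span was 7.39 kb, against 17.2 kb for all protein-coding genes, and 53.3% of members had an end of another protein-coding gene within 1 kb of one of their ends, against 24.8% of all genes. Of the 42 distinct peaks within 5 kb of a member, 26 had a member as the nearest protein-coding gene, and 16 had an end of a coding gene outside the chain within 1 kb. Of 49 members without a close neighbour, 20 (40.8%) had a peak within 5 kb, against 20.4% of all genes without one. Of 56 members with one, 16 (28.6%) did, against 34.8% of all genes with one. When each peak was given to its nearest protein-coding gene alone, 25 members (23.8%) had a peak within 5 kb, against 19.1% of all genes. The part of span and neighbours in the members' share was not tested.

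The HIF core was not more frequent in the promoters of members with a peak within 1 kb of a gene end. Of 88 members with a RefSeq promoter, 57 (64.8%) held ACGTG or GCGTG on either strand within the 300 bases, against 52.3% of 17492 protein-coding genes with one. Among the 25 members with a peak within 1 kb, 13 held a core (52%), whereas 44 of 63 members without a peak (69.8%) did. Across all protein-coding genes the shares ran the other way, at 70.8% of 2876 genes with a peak within 1 kb and 48.7% of 14616 without. ACGTG, which is also part of the E-box CACGTG, was found in 3 of 25 members with a peak (12%) and in 34.7% of all genes with a peak. The letters were searched in the promoter window, not in the peak, and no test was made.

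Other nuclear genes of the pathway, taken as a list of 35 electron carriers, assembly factors and regulators outside the symbol rule, gave 19 genes with a peak within 5 kb (54.3%), against 24.0% of all protein-coding genes. For peaks of 2 calls the count was 6 (17.1%), against 7.72%. This list was chosen with earlier results of these data known, and no test was made of either difference. The highest score was 13, at Higd1a, a small protein of the inner membrane that associates with complex IV, with the peak centred 35 bp inside the gene. Ecsit, a complex I assembly factor, had a score of 10 at 271 bp, in a peak nearer to Zfp653 (231 bp). Uqcc3, which acts in complex III assembly, had a score of 4 at 4 bp. Taco1, a translational activator of subunit 1 of complex IV, and Lrpprc, which stabilises mitochondrial mRNAs, each had a score of 3, at 10 and 97 bp. Atpaf2, a complex V assembly factor, had a score of 4 at 3376 bp, in a peak 42 bp from an end of Gid4. Those with peaks of 1 call were Cycs, the soluble cytochrome c (score 4 at 184 bp), Uqcc1, Uqcc2, Bcs1l, Sco2, Coa5, Coa6, Coa7, Pet100, Nubpl, Acad9, Atpaf1 and Dmac2. Cyc1, the cytochrome c1 subunit of complex III, lay 16.2 kb from its nearest peak.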

How the data were processed

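HIF1α ChIP-seq was run on wild-type E12.5 mouse hearts with 2 pulldown libraries and 1 input. The submitters' processing notes name Bowtie2, HOMER and mm10, without versions. Per the file headers, peaks of each pulldown against the input were merged by the authors into 1 list. The deposited score is a whole number whose scale is not given, and the number that ends each peak name was taken as its count of merged calls. Read depth is unknown.

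Gene ends came from RefSeq GRCm38.p6, the build of mm10; genes listed before 3 Mb, except on chromosome Y, were taken as unplaced and dropped. The distance is that between the peak centre and the nearer gene end, in windows of 1, 5 and 50 kb, with Python 3.11.15, pandas 2.3.3 and scipy 1.17.1. Exons and UTRs were not resolved. Gene starts and promoters came from the RefSeq promoter table, which holds 88 members. Counting was tested on simulated data. Shares have exact 95% Clopper-Pearson intervals, no list test was made, and alternatives are given at the end. For 0 of 36 members at a score of 10 or more, the floor is 3 counts of the total. Intervals and floor cover counting error only.

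The members and lists were chosen with earlier results of these data known. Named with values are members with a peak within 1 kb, with a peak of 2 calls within 5 kb, or with the highest score of their complex within 50 kb; other members within 5 kb are named, and those without a peak within 50 kb are named. The complex and role of each gene are textbook knowledge. The values of 1 member are not reported here, though it is counted.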

Additional observations from a re-analysis of the deposited data

How the results depend on the processing

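Of the 105 members, 36 were near a peak at 5 kb. The count was 78 at 50 kb and 9 with peaks of 2 calls, and it ranged from 25 to 37 under the other settings tried. In that range, gene starts alone were counted over 88 members (33.0%, against 20.4% of all genes). Structural subunits alone were counted over 78 (35.9%, against 24.0%). When any base of a peak in the window or inside the gene counted, the share was 35.2%, against 32.7% of all protein-coding genes, which narrowed the difference. For peaks of 2 calls the count of 9 became 27 at 50 kb and was 6 to 10 otherwise, again over 88 gene starts and 78 structural subunits. By complex, a window of 50 kb gave 38 genes in complex I, 5 in II, 17 in IV and 15 in V. Peaks of 2 calls gave 5 in complex I and 1 in each of II, III, IV and V. A window of 1 kb gave 1 in complex III and 6 in IV. Giving each peak to its nearest coding gene left 1 in complex II and 0 in III, and counting gene starts alone left 1 of 5 in complex III. The median score of the nearest peak, 3 at 5 kb, was 4 at 1 kb, where all protein-coding genes stayed at 3. Wider windows hold more peaks by construction, and stricter rules fewer. Leaving out a pulldown was not run, since the list does not mark the source of a single call. No paired analysis was possible because the pulldowns and the input come as 1 merged list. Complexes II and III have 8 genes each, so 1 gene is 12.5% of either. Without read depth, the lack of a peak does not show that HIF1α was not bound.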

Other observations

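Member promoters were also searched for motifs of other factors known to act on nuclear genes of the respiratory chain, a choice made after the peak values were seen. CCGGAAG, a core bound by ETS factors such as GABPA, was found on either strand in 27 of 88 member promoters (30.7%), against 12.9% of 17492 protein-coding promoters. Of the 25 members with a peak within 1 kb, 10 (40.0%) held it, against 22.8% of all genes with a peak. GCATGCGC, a core of the NRF1 motif, was found in 12 of 88 member promoters (13.6%), against 3.94% of all promoters. Of these 12 members, 1 had a peak within 1 kb (8.33%), against 28.3% of the 689 protein-coding genes with this motif. Of the 25 members with a peak, 1 (4.0%) held GCATGCGC, against 6.78% of all genes with a peak. Of the 63 members without one, 11 (17.5%) held it, against 3.38% of all genes without one. For CCGGAAG, 10 of the 27 members with the motif had a peak within 1 kb (37.0%), against 29.0% of all genes with it. In the promoters shown, CCGGAAG starts at position -18 in Ndufaf1, where it overlaps the GCGTG at -12, and at -27 and, on the reverse strand, at 2 in Ndufs3. These are matches of letters, and no test was made.

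Of the 4 genes left out by the rule, Ndufa4l2 and Cox4i2, which are known to be induced in hypoxia, had peaks of 2 calls with scores of 13 (323 bp) and 5 (598 bp). The peak of Ndufa4l2 was closer to an end of Shmt2, at 292 bp. Ndufa4 had a peak of 1 call and score 2 at 766 bp, and Cox4i1 had its nearest peak at 61.9 kb.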
